A study of Mus musculus musculus x M. m. domesticus and Mus musculus musculus x Mus musculus castaneus and Mus musculus domesticus with 42 samples.

Results

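The comparison described here is between the livers of reciprocal F1 hybrid males of 2 house mouse subspecies, Mus musculus musculus and Mus musculus domesticus. The 2 F1 are made from the same pair of parental lines and differ in which subspecies was the mother. Its members are all liver arrays of those 2 crosses, 4 of the 42 arrays of the series: 2 males with a musculus mother and a domesticus father (musculus x domesticus F1, 53 days old) and 2 males with a domesticus mother and a musculus father (domesticus x musculus F1, 50 days old). The parental livers came from musculus males of 47 days and domesticus males of 45 days, and the other livers from musculus x castaneus F1 (53 days), castaneus x musculus F1 (54 days) and castaneus males (47 days), 2 males each. All parents are wild-derived inbred lines, and no male carried a transgene or was given a treatment according to the labels. Brain and testis of the same 14 males were also profiled. Total RNA was hybridised to Affymetrix 430 2.0 arrays, on which a gene is read by 1 or more probe sets, and each probe set has 1 signal on a linear intensity scale. The series asks how parental differences in expression are inherited in hybrids. Age and genotype go together in these males, so they cannot be told apart. The hour at which each liver was taken is not given in the sources used here.

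Reciprocal F1 males have the same autosomal genotypes, 1 copy from each parental line, but a male receives his X chromosome and his mitochondria from his mother and his Y chromosome from his father. At imprinted genes the copies from mother and father are not expressed alike. The liver holds a circadian clock, a feedback loop in which the activators Arntl and Clock or Npas2 switch on their own repressors Per, Cry and Nr1d. That loop drives daily rhythms in bile acid, cholesterol, glucose and haem metabolism, alongside hormonal signals such as glucocorticoids.

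The liver arrays carried hepatocyte messages at high and overlapping levels: the summed signal of 9 hepatocyte markers, among them Alb and Apob, was 242671 and 183527 in musculus x domesticus F1 and 190822 and 217037 in domesticus x musculus F1, against 174034 to 258354 in the other 10 livers. Median signals were 140 and 130 in musculus x domesticus F1 and 135 and 116 in domesticus x musculus F1. Arrays of 1 genotype correlated at Pearson r 0.951 to 0.97 over probe sets. Differences below are on the scale log2(signal + 31), as the musculus x domesticus F1 mean minus the domesticus x musculus F1 mean with its standard error (SE), and this scale understates the change of dim genes. They come from 1 limma fit over all 14 livers, 2 in each of 7 genotypes, with Benjamini-Hochberg adjustment over 27022 probe sets, two-sided, and a probe set was called at an adjusted p under 0.05.

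Of those 27022 probe sets, 13 were called higher in musculus x domesticus F1 (0.0481%) and 11 were called lower (0.0407%). They stood for 18 named genes, among them the X-linked Trappc2, Hprt, Mpp1, Car5b and Chic1, the sialic acid enzymes Gne and St3gal5, the acute phase gene Orm1, the glucocorticoid target Fkbp5 and the long noncoding RNA Snhg14. In all 24 the difference between the F1 means was larger than that between the 2 arrays of any of the 7 genotypes. That held for 8.03% of all probe sets. The same pairs set the spread used in the test, so this is no separate support for the calls. With quantile normalization the split was 14 higher and 22 lower, and with each array centred on its median it was 5 higher and 9 lower. These calls depended on both males of each F1: without musculus x domesticus F1 replicate 1 no probe set was called (1454 had an unadjusted p under 0.05 in limma), without replicate 2 of that F1 there were 3, and without domesticus x musculus F1 replicate 1 or 2 there were 4 and 5. A fit of the 4 F1 livers alone called 226 higher (0.836%) and 151 lower (0.559%), the 24 among them. With 2 males a group an exact permutation test over the 4 livers cannot give a p below 0.333.

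Of the 5 X-linked genes called, 4 tracked the mother. Trappc2 encodes a subunit of the TRAPP complex, which tethers vesicles between the endoplasmic reticulum and the Golgi. Its signal was 890 and 879 in musculus x domesticus F1 and 111 and 14 in domesticus x musculus F1, and the parents had 1136 and 1157 in musculus and 157 and 157 in domesticus. The log2 difference was 3.52 ± 0.37 (SE, n = 2 each; limma adjusted p = 0.00586). All 4 livers with a domesticus mother lay between 14 and 157, and the other 10 livers lay between 879 and 1344, so each F1 sat with its mother's subspecies.

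Hprt, the purine salvage enzyme whose human deficiency causes Lesch-Nyhan syndrome, had signals of 1524 and 1521 in musculus x domesticus F1 against 3552 and 3494 in domesticus x musculus F1. Musculus livers had 1734 and 1838 and domesticus livers 3316 and 3395. The difference was -1.19 ± 0.15 (SE; limma adjusted p = 0.0133), with males of domesticus mothers at 3316 to 3552 and all others at 1234 to 2098. Mpp1, a palmitoylated membrane scaffold first described in red cells, read 714 and 646 against 2179 and 2100, with 1159 and 771 in musculus and 2372 and 3023 in domesticus livers (-1.61 ± 0.22 SE, limma adjusted p = 0.0225). Car5b, a mitochondrial carbonic anhydrase, had signals of 115 and 49 in musculus x domesticus F1, 499 and 508 in domesticus x musculus F1, 31 and 89 in musculus and 503 and 383 in domesticus livers. Its difference was -2.31 ± 0.36 (SE; limma adjusted p = 0.0375), and a second Car5b probe set was not called (-0.84). In these 3 genes, as in Trappc2, the 4 livers of males with a domesticus mother did not overlap the other 10. Such a separation was present in 1.47% of all probe sets. All 4 genes were called between the F1 and between the parents, which favours it. Among probe sets called between the parents it was present in 44% of those on a list of X-linked genes and in 9.81% of other named ones. Of the 24 called between the F1, 7 had it (29.2%), among them Orm1 and Fam149a, which are not on that list.

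Chic1, a membrane-bound protein gene that lies near Xist, did not share that pattern. Its signal was 182 and 166 in musculus x domesticus F1 and 887 and 819 in domesticus x musculus F1, while musculus livers had 437 and 367 and domesticus livers 451 and 720. The difference between the F1 was -2.11 ± 0.29 (SE; limma adjusted p = 0.0225) and the parents were not called apart (-0.48 ± 0.29 SE, limma adjusted p = 0.435). The musculus x domesticus F1 lay below every other liver, the lowest of which had 222. Another 2 Chic1 probe sets, not called, stood at -1.39 and -0.33.

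**Figure D1:**
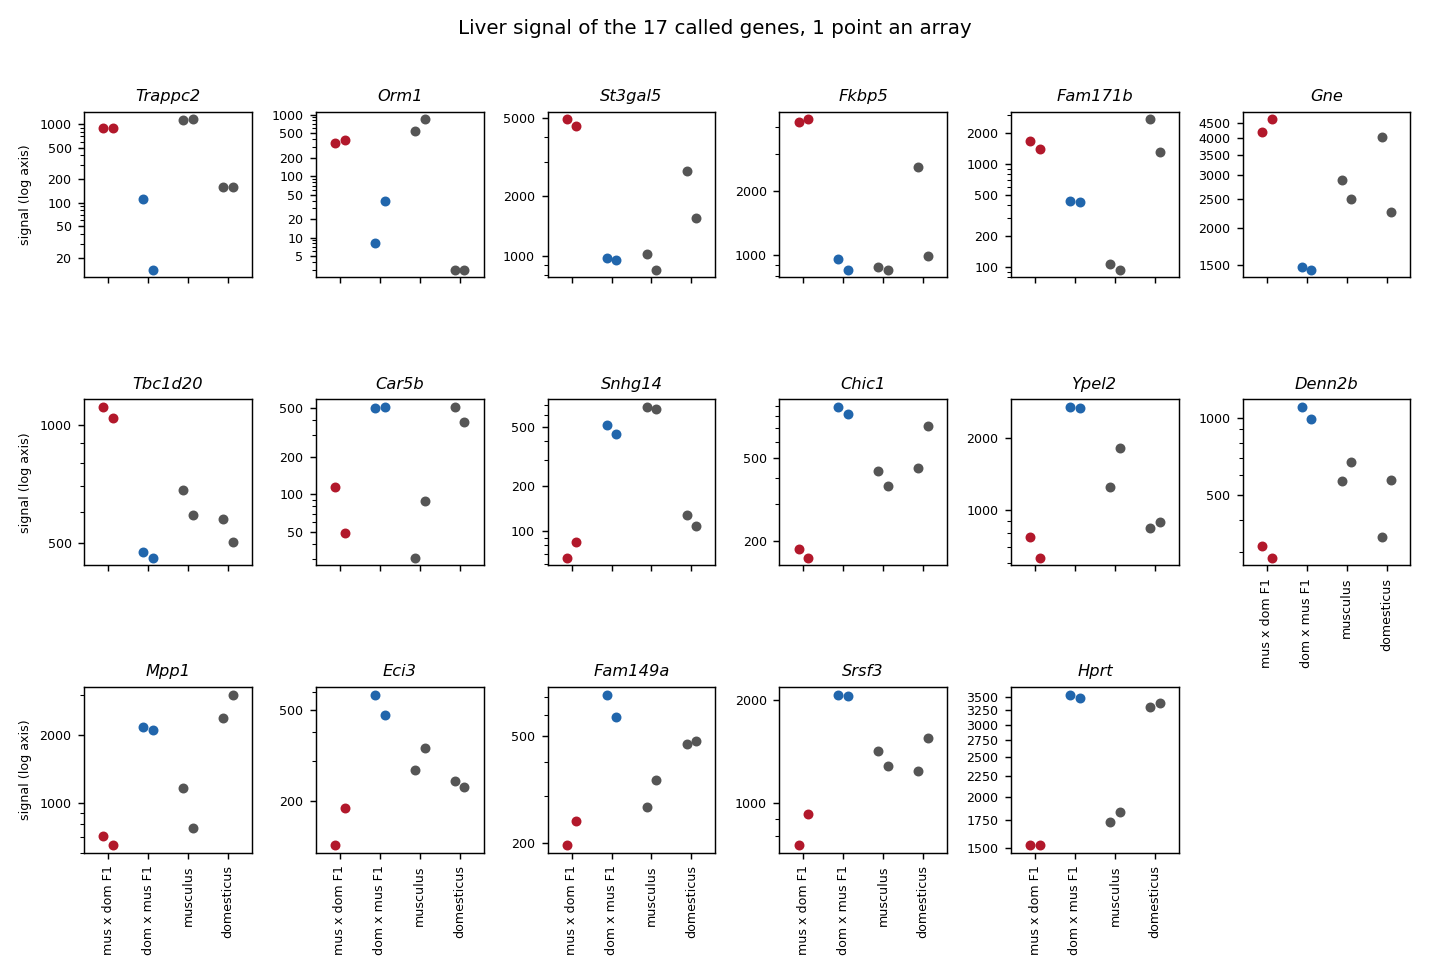
Liver signal on a log axis for the 17 named genes called between the reciprocal F1, 1 panel a gene, with 1 point for each male. From left to right are musculus x domesticus F1, domesticus x musculus F1, musculus and domesticus, and the livers with castaneus parentage are not drawn. In Trappc2, Hprt, Mpp1 and Car5b each F1 lies with its mother's subspecies, whereas in Ypel2, Tbc1d20, Srsf3 and Chic1 the musculus x domesticus F1 points lie beyond both parents.

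The same relation was present over X-linked genes more widely. On a list of X-linked symbols that was written by hand after values of these arrays had been seen, 335 genes with 592 probe sets were tested, and 5 of those probe sets were called (0.845%), against 14 of 22086 other named probe sets (0.0634%). Between the parents 1668 of all 27022 probe sets were called (6.17%), 25 of them on the X list, from 23 genes. In 21 of the 25 the F1 difference had the sign of the musculus minus domesticus difference, and in 19 of those 21 the 2 F1 did not overlap. For comparison, the sign was shared in 651 of 1417 other named probe sets called between the parents (45.9%). The F1 did not overlap in 354 of those 651, and in 422 of the 766 with the opposite sign. The 1417 are all those not on the list, so X-linked genes that it lacks may be among them. Across the 25 probe sets the F1 difference and the parental difference correlated at Pearson r 0.865 and Spearman rho 0.892, and across the 1417 at r -0.0714. These are correlations over genes measured on the same 8 livers, and genes are not independent replicates. The median F1 difference of the 25, turned to the sign of the parental one, was 0.97, beside a median parental difference of 1.31 in size. The X list gets no test, because it was written with values known.

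Individual X-linked genes that differed between the parents varied in how close the F1 difference came to the parental one. None of the following was called between the F1. Bex1, a brain-expressed X-linked gene, had signals of 489 and 314 in musculus x domesticus F1 against 61 and 53 in domesticus x musculus F1 (2.27 ± 0.42 SE, limma adjusted p = 0.0623). Both probe sets of Praf2, a membrane trafficking protein gene, had positive F1 differences (2.14 and 1.43) and positive parental differences (2.47 and 2.18). Araf, a kinase of the MAP kinase cascade, stood at -1.60 between the F1 and -1.65 between the parents. Others shared the sign but fell short, such as Maoa (0.22 between the F1, 0.97 between the parents) and Elk1 (-0.14 and -1.20). Fundc2, a mitochondrial outer membrane protein gene, had 2 probe sets that ran in opposite directions: -0.93 between the F1 and -1.04 between the parents for one, 0.85 and 1.14 for the other. Each of the 2 therefore followed its own parental difference. On these arrays a sequence difference under a probe can lower a signal as a lower message level would, and its part in the signals of Fundc2 and of the genes above was not tested.

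Of the 25 probe sets, 4 had the opposite sign. Cldn2, a tight junction claudin, stood at -0.57 between the F1 and 0.69 between the parents. Dcaf12l1 stood at -0.83 and 1.13, Rap2c, a small GTPase gene, at -0.24 and 0.89, and Il13ra2, a decoy receptor for interleukin 13, at -0.03 and 2.14. In 3 of these 4 the F1 did not overlap, as in 422 of 766 other named probe sets of opposite sign.

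**Figure D2:**
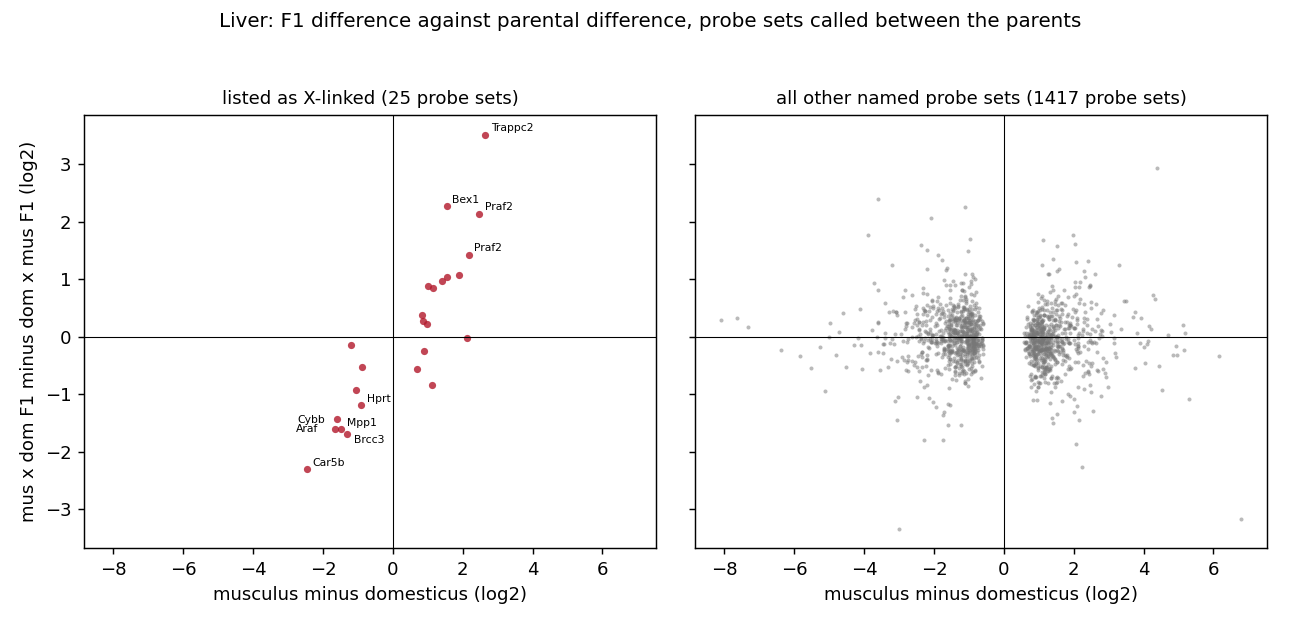
Liver log2 difference between the reciprocal F1 (musculus x domesticus minus domesticus x musculus, vertical) against the parental difference (musculus minus domesticus, horizontal) for probe sets called between the parents, with the 25 of the X list and the 1417 other named probe sets in separate panels. Most X-list points run up the diagonal (r 0.865), and the other points show no such trend (r -0.0714).

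Genes called between the F1 had the sign of the mother's subspecies, that of the father's, or parents that were not called apart. Over all 24 called probe sets, the X list included, these counts were 8, 5 and 11. Off the X list, 4 had the mother's sign, all of them higher in musculus x domesticus F1. The father's sign was present in 3 higher and 2 lower ones, with both St3gal5 probe sets among the 3. Parents were not called apart for 5 higher and 5 lower ones. Since 13 of the 24 differed between the parents, the direction of the parental difference could be read for those alone. Orm1, which encodes the acute phase plasma protein orosomucoid, was like the mother: 350 and 390 in musculus x domesticus F1 against 8 and 39 in domesticus x musculus F1, with 535 and 842 in musculus and 3 and 3 in domesticus livers. The difference was 2.94 ± 0.36 (SE; limma adjusted p = 0.0133). Livers with castaneus parentage were far brighter, at 3184 to 19060. Orm1 has close copies in the mouse genome, so signals of Orm1 and Orm2 may share message.

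Snhg14 was like the father. It is the long noncoding RNA of the imprinted Snrpn to Ube3a region, known to be transcribed from the paternal copy in brain. Its signal was 66 and 84 in musculus x domesticus F1, whose fathers were domesticus, against 513 and 446 in domesticus x musculus F1, whose fathers were musculus. Musculus livers had 682 and 658 and domesticus livers 128 and 108, so that each F1 lay on the side of its father's subspecies without overlap. The difference was -2.27 ± 0.30 (SE; limma adjusted p = 0.0208). No other Snhg14 probe set passed the filter in liver. Musculus x castaneus F1 minus castaneus x musculus F1 was -1.13 ± 0.30 for Snhg14 (SE; limma adjusted p = 0.71), not called. Snhg14 was not on the list of imprinted genes, of which 48 were tested and 0 were called by limma, 3 with an unadjusted p under 0.05 in each direction. Probe sets that match several symbols were not read for that list, so its count of 0 covers neither them nor Snhg14. That list's median difference was -0.06, beside 0.02 over all 13421 genes tested.

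St3gal5 and Fam171b also had the sign of the father's subspecies. St3gal5, the sialyltransferase that makes the ganglioside GM3, had signals of 4924 and 4522 in musculus x domesticus F1 and 969 and 948 in domesticus x musculus F1. Musculus livers had 1021 and 850 and domesticus livers 2697 and 1556, so musculus x domesticus F1 lay above both parents. The difference was 2.26 ± 0.27 (SE; limma adjusted p = 0.0133), and a second St3gal5 probe set was called as well (1.70 ± 0.26 SE, limma adjusted p = 0.0373). Fam171b, a membrane protein gene with no settled role in liver, had 1673 and 1411 against 438 and 425, with 108 and 94 in musculus and 2747 and 1323 in domesticus livers (1.76 ± 0.28 SE, limma adjusted p = 0.0459), and its other probe set stood at 2.07, not called. Both F1 lay between the lowest and the highest parental liver for Fam171b.

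In genes whose parents were not called apart, 1 or both F1 lay outside all other livers. Gne, the enzyme that starts sialic acid synthesis, had signals of 4191 and 4628 in musculus x domesticus F1 against 1480 and 1449 in domesticus x musculus F1, with 2887 and 2496 in musculus and 4036 and 2263 in domesticus livers (1.57 ± 0.22 SE, limma adjusted p = 0.0264). On this probe set the first F1 lay above all other livers and the second below all of them. Gne's other probe set stood at 0.63 between the F1, not called (limma adjusted p = 0.454), and at -2.06 between the parents, where it was called (limma adjusted p = 0.000403). Neu2, a sialidase that removes sialic acid, was not called, with 47 and 93 against 372 and 289 (-1.87 ± 0.33 SE, limma adjusted p = 0.062). Tbc1d20, which inactivates the small GTPase Rab1, rose to 1111 and 1044 in musculus x domesticus F1, above all 12 other livers, against 474 and 459 in domesticus x musculus F1 (1.16 ± 0.18 SE, limma adjusted p = 0.0375), while its other probe set, not called, stood at 0.35.

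Fkbp5, a co-chaperone of the glucocorticoid receptor that glucocorticoids induce, had signals of 4232 and 4380 in musculus x domesticus F1 against 964 and 855 in domesticus x musculus F1. The difference was 2.21 ± 0.36 (SE; limma adjusted p = 0.048), near the threshold, and 1 other Fkbp5 probe set stood at 1.78. Musculus livers had 878 and 855, while the 2 domesticus livers, at 2592 and 990, lay far apart.

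Ypel2, a member of the yippee-like family, fell to 772 and 634 in musculus x domesticus F1, against 2683 and 2668 in domesticus x musculus F1, with 1241 and 1805 in musculus and 843 and 890 in domesticus livers (-1.89 ± 0.25 SE, limma adjusted p = 0.0208), and its other probe set stood at -1.82, not called. Here too the 2 F1 were the lowest and the highest genotypes of the 7. Denn2b, which activates Rab GTPases, showed the same order, with 317 and 286 against 1101 and 991 (-1.70 ± 0.26 SE, limma adjusted p = 0.0373). Srsf3, a splicing factor needed for hepatocyte differentiation in mice, had 751 and 927 against 2077 and 2058 (-1.28 ± 0.20 SE, limma adjusted p = 0.0375), with both parents from 1243 to 1553. The musculus x domesticus F1 lay below all other livers for this Srsf3 probe set, and 5 others, not called, stood at -1.70 to -0.16. Eci3, an enoyl-CoA isomerase of fatty acid oxidation, had 128 and 187 against 583 and 473 (-1.58 ± 0.24 SE, limma adjusted p = 0.0373). Fam149a had 196 and 242 against 712 and 590 (-1.45 ± 0.23 SE, limma adjusted p = 0.0459), but its other probe set stood at 0.16, so the 2 do not point the same way. Eci3 belongs to a family of close copies, which may share message.

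The largest difference among the called probe sets after Trappc2 and Orm1 belonged to one that matches several symbols and is therefore not named. It had the smallest p of all, with 282 and 302 against 2036 and 2047 in the F1, 2202 and 1774 in musculus and 320 and 356 in domesticus livers (-2.68 ± 0.25 SE, limma adjusted p = 0.00282). Like Snhg14, it had the sign of the father's subspecies. It was also called between musculus x castaneus F1 and castaneus x musculus F1 (-1.67 ± 0.25 SE, limma adjusted p = 0.049). Whether it reads an imprinted gene was not tested.

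Clock genes differed in signal between the F1 livers, Dbp by more than any other gene tested, but none of them passed the test. Of 15 core clock genes tested, 7 were higher without overlap in musculus x domesticus F1, where 24.5% of all probe sets were, and 4 were lower without overlap, where 18.8% were. Of 17 clock output genes, 8 were higher and 5 lower without overlap. At an unadjusted p under 0.05, which 9.62% of all probe sets reached, there were 10 core clock and 11 output genes, and limma called 0 of either list. The fit of the 4 F1 livers alone called 4 core clock genes higher and 2 lower, and 7 output genes higher and 4 lower. The list medians were 0.28 and 0.29, with members on both sides of 0. Without musculus x domesticus F1 replicate 1 the core clock median was 0.55, and without replicate 2 of that F1 the medians were 0.12 for core clock and 0.59 for output genes. The difference was larger than that between the arrays of any 1 genotype in 7 core clock genes and 10 output genes, against 8.03% of all probe sets.

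Activators of the loop were at low signal in musculus x domesticus F1. Arntl, which encodes BMAL1, had 176 and 176 in that F1 against 1348 and 1629 in domesticus x musculus F1 (-2.87 ± 0.70 SE, limma adjusted p = 0.137), although another Arntl probe set stood at 0.06. Npas2, a partner of BMAL1, had 5 and 11 against 349 and 288 (-3.16 ± 0.74 SE, limma adjusted p = 0.127). Clock itself had 253 and 402 against 887 and 698 (-1.22 ± 0.44 SE, limma adjusted p = 0.366). In all 3 the 2 F1 did not overlap, and at least 1 musculus liver lay in the gap between them. Males of 1 genotype also differed widely. In the domesticus pair, replicate 1 minus replicate 2 was -2.73 for Arntl, -1.81 for Npas2 and -1.73 for Clock. For Clock that was larger in size than the F1 difference.

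Repressors that the activators switch on were at high signal in the same F1. Per3 had 687 and 753 in musculus x domesticus F1 against 84 and 181 in domesticus x musculus F1 (2.26 ± 0.47 SE, limma adjusted p = 0.0884). Per2 had 944 and 684 against 288 and 236 (1.52 ± 0.35 SE, limma adjusted p = 0.127), and Per1 had 705 and 897 against 136 and 11 (3.30 ± 1.16 SE, limma adjusted p = 0.345). Thus all 3 Period genes lacked overlap, and Per1 had the widest SE of them. Per2 was also called between the parents, lower in musculus than in domesticus livers (-2.21 ± 0.35 SE, limma adjusted p = 0.00175). Nr1d2, a nuclear receptor that represses Arntl, had 6764 and 5841 against 1020 and 1108 (2.53 ± 0.44 SE, limma adjusted p = 0.0574). Nr1d1 had 577 and 1323 against 67 and 365 (2.20 ± 0.52 SE, limma adjusted p = 0.127). The cryptochromes did not run together: Cry2 stood at 0.83 and Cry1 at -0.995.

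Dbp, a transcription factor that BMAL1 and CLOCK switch on directly and that carries the rhythm to metabolic genes, had the widest gap on the array. Its signal was 12569 and 9776 in musculus x domesticus F1 against 159 and 161 in domesticus x musculus F1, a difference of 5.86 ± 1.08 (SE; limma adjusted p = 0.0623), and its other probe set gave 5.60. Dbp also varied between males of 1 genotype: 4042 and 292 in the 2 musculus livers and 13786 and 2125 in the 2 domesticus livers. On the log2 scale these same-genotype pairs differed by 3.66 and 2.68, less than the F1 means did. When the 4 F1 livers were fitted alone, without that parental spread, the adjusted p for Dbp was 1.66e-05. The castaneus x musculus pair had 626 and 3772 and the castaneus pair 467 and 1359.

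Other output genes lay on either side. Usp2, a clock-driven deubiquitinase, had 4437 and 3774 against 408 and 354 (3.33 ± 0.73 SE, limma adjusted p = 0.116), and its second probe set gave 4.52 (limma adjusted p = 0.0574). Tef, a relative of Dbp, had 3743 and 3884 against 1413 and 1548 (1.35 ± 0.28 SE, limma adjusted p = 0.0956). Nfil3, which represses the sites that Dbp activates, had 655 and 361 against 1682 and 2008 (-1.85 ± 0.62 SE, limma adjusted p = 0.309). The activator Tef and the repressor Nfil3 thus stood on opposite sides of 0. Leo1, a subunit of the transcription elongation complex PAF1, had 149 and 230 against 785 and 849 (-1.97 ± 0.44 SE, limma adjusted p = 0.125). Alas1, the first enzyme of haem synthesis, stood at 1.78, Wee1, a cell cycle kinase, at 1.27, Nampt, which makes NAD, at 1.04, Avpr1a, a vasopressin receptor, at -1.02 and Pnp, a purine phosphorylase, at -1.05, all without overlap. Hlf, Csnk1d, Csnk1e, Rora, Bhlhe40, Bhlhe41, Tspan4, Lonrf3 and Tsc22d3 lay between -0.08 and 0.31. Noct at 1.32 and Tfrc at -0.43 had wide spreads within genotypes, and Gys2, the liver glycogen synthase, stood at 1.34.

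**Figure D3:**
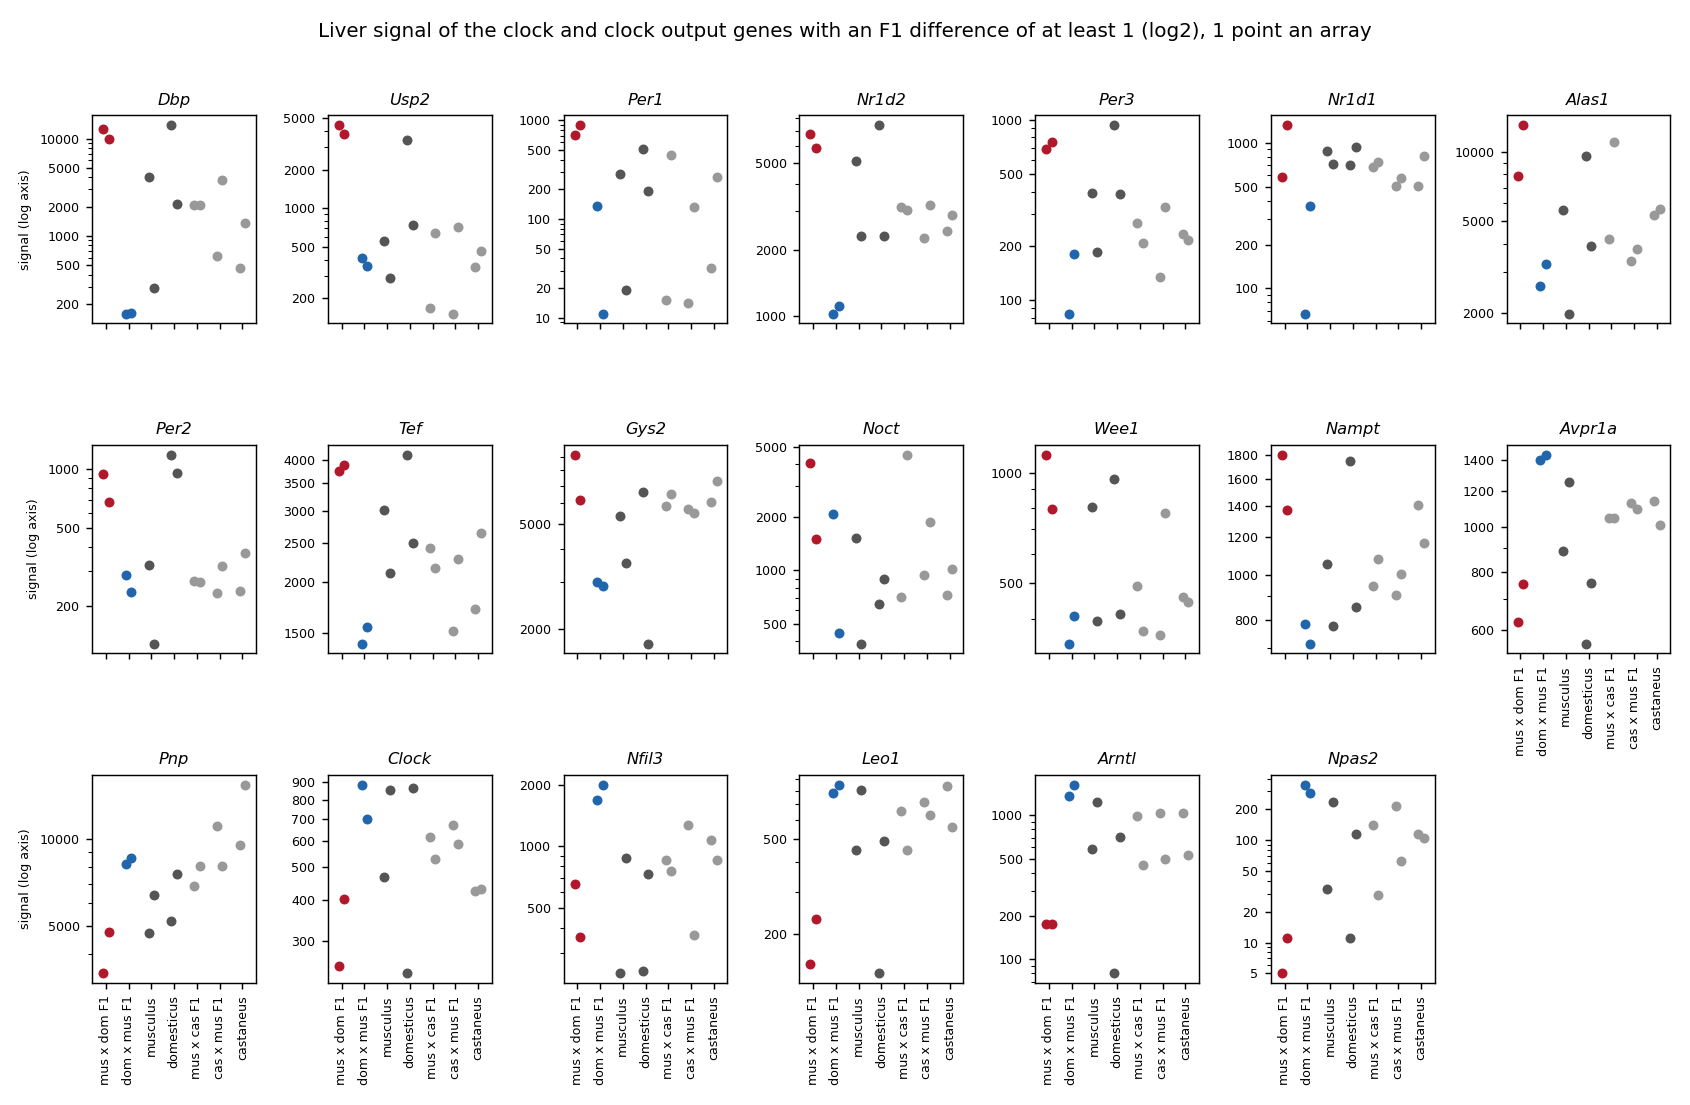
Liver signal on a log axis for 20 genes of the core clock and clock output lists, 1 point for each male, with musculus x domesticus F1 leftmost, domesticus x musculus F1 next and the other 5 genotypes after them. The 2 males of each F1 lie close together and far from the other F1 in Dbp, Nr1d2, Usp2 and Arntl, while the 2 musculus and the 2 domesticus points of Dbp lie far from each other.

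Among metabolic genes, those of cholesterol synthesis leaned one way. Of 20 tested, 0 were called by limma, 11 had an unadjusted p under 0.05 and a lower signal in musculus x domesticus F1, and 11 were lower without overlap against 1 higher. For this list and those below, 18.8% of all probe sets were lower and 24.5% higher without overlap. An unadjusted p under 0.05 in either direction was reached by 9.62% of all probe sets. The list median was -0.60, beside 0.02 over all genes, and it was -0.34 without musculus x domesticus F1 replicate 1, which had the lower signal of that pair in those 11. Mvd, the mevalonate decarboxylase, had 260 and 431 in musculus x domesticus F1 against 2114 and 2086 in domesticus x musculus F1 (-2.54 ± 0.59 SE, limma adjusted p = 0.127). Mvk, the mevalonate kinase, had 287 and 957 against 1559 and 1770 (-1.59 ± 0.40 SE, limma adjusted p = 0.147). Fdft1, the squalene synthase, had 2163 and 4096 against 6810 and 7313 (-1.24 ± 0.26 SE, limma adjusted p = 0.0978). The 2 F1 did not overlap in these 3 steps between mevalonate and squalene. The enzymes Idi1, Hmgcs1 and Sqle, and Insig1, which restrains the pathway's transcription factors, lay between -1.05 and -0.80 on their brightest probe sets. An Hmgcs1 probe set outside that range stood at -1.20 between the F1 and at -1.53 between the parents, where it was called. Sc5d, which acts late in the pathway, had 3 probe sets that disagreed: the brightest stood at -0.04, another at -1.08, and the remaining one had 1415 and 1745 against 7085 and 5981 (-2.03 ± 0.35 SE, limma adjusted p = 0.0567).

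Genes of fatty acid synthesis divided. None of 24 was called by limma, with 1 higher and 7 lower at an unadjusted p under 0.05. Without overlap 6 were higher, where 24.5% of all probe sets were, and 10 were lower, where 18.8% were. Fasn, the fatty acid synthase, had 1712 and 3543 in musculus x domesticus F1 against 9303 and 9526 in domesticus x musculus F1 (-1.92 ± 0.48 SE, limma adjusted p = 0.152). Srebf1, the transcription factor that drives Fasn, had 3763 and 3688 against 8623 and 8933 (-1.23 ± 0.35 SE, limma adjusted p = 0.225). Lpin1, a phosphatidate phosphatase that also acts as a coactivator, stood the other way with 5390 and 8896 against 886 and 524 (3.29 ± 1.10 SE, limma adjusted p = 0.311). Among musculus livers Lpin1 had 3957 and 664 and among domesticus livers 5294 and 393, so its same-genotype spread was of like size.

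The other metabolic lists had medians near 0 and no calls by limma. Fatty acid oxidation (25 tested) had 2 higher and 2 lower at an unadjusted p under 0.05. Its members with the largest differences were Angptl4, which inhibits lipoprotein lipase, at 2.05 ± 0.72 (SE) and Plin2, a lipid droplet coat protein, at -1.13 ± 0.26 (SE). Glucose and glycogen genes (20 tested) had 4 higher and 2 lower. Pfkfb3, which sets the level of a glycolytic activator, stood at 1.79, Pck1, the entry enzyme of gluconeogenesis, at 1.23, and the glycogen-targeting phosphatase subunits Ppp1r3c and Ppp1r3b at -1.79 and -1.34. Ppp1r3b had 2720 and 2804 against 7009 and 7098 (limma adjusted p = 0.108), 2 tight pairs. Bile acid genes (24 tested) had 2 higher and 2 lower. Cyp7a1, the rate-limiting enzyme of bile acid synthesis, had 4180 and 3008 against 1092 and 1576 (1.41 ± 0.45 SE, limma adjusted p = 0.284), and the canalicular transporter Abcc2 stood at 1.04. Amino acid and urea cycle genes (28 tested) had 0 higher and 2 lower, P450 genes (43 tested) 2 higher and 1 lower, and conjugation enzymes (39 tested) 0 higher and 2 lower. In the conjugation list the largest difference, that of the sulfotransferase gene Sult2a2 (-3.18), rested on 1 array, with 11385 and 75 in musculus x domesticus F1 against 9192 and 10694. Without the second of those males it was 0.20.

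The list of glucocorticoid and metallothionein response genes had 1 call, Fkbp5, among 22 tested. At an unadjusted p under 0.05, 9 were higher and 0 lower, and without overlap 13 were higher and 1 lower. Over all probe sets, 24.5% were higher and 18.8% lower without overlap. Its median was 0.65, beside 0.02 over all genes. Mt1, a metallothionein, had 25218 and 13351 in musculus x domesticus F1 against 1366 and 1524 in domesticus x musculus F1 (3.64 ± 0.84 SE, limma adjusted p = 0.127), and Mt2 had 25687 and 15157 against 3172 and 4186 (2.43 ± 0.91 SE, limma adjusted p = 0.389). Of the domesticus livers, replicate 1 had 23137 for Mt1 and replicate 2 had 1742. A gap of that size thus occurred between 2 males of 1 genotype as well. Klf9, a hormone-induced transcription factor, had 12049 and 9872 against 4415 and 3465, and 11856 and 3915 in the domesticus pair (1.47 ± 0.42 SE, limma adjusted p = 0.221). Zbtb16 stood at 1.38, Klf15 at 0.86 and Cdkn1a at -1.13. Only 2 of the 22 had an F1 difference larger than that of every same-genotype pair, a share of 9.09% beside 8.03% of all probe sets.

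Immune and stress lists gave 1 more call. Of 39 acute phase and complement genes, Orm1 was called, 7 were higher and 0 lower at an unadjusted p under 0.05, and Saa2, a serum amyloid, had 12462 and 17780 in musculus x domesticus F1 against 3862 and 4382 in domesticus x musculus F1 (1.85 ± 0.36 SE, limma adjusted p = 0.073). That list's median was 0.04 and it turned to the other side of 0 when arrays were centred on their medians. Interferon response genes (41 tested) had 2 higher and 6 lower at an unadjusted p under 0.05, with Oas2, an antiviral sensor, at 1.74 and Rsad2 at -0.83. Antigen presentation genes (18 tested) had 0 higher and 4 lower, among them the class II genes Cd74 (-1.01) and H2-Aa (-0.98). Heat shock and unfolded protein genes (32 tested) had 4 higher and 2 lower, led by Trib3 (1.58) and Herpud1 (1.47), both induced in endoplasmic reticulum stress.

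Markers of other cells moved with these comparisons in part, and their part in them was not tested. In whole liver, fewer cells of a type and less RNA per cell cannot be told apart. Over all probe sets, 24.5% were higher and 18.8% lower without overlap. All 10 Kupffer cell and macrophage markers tested had negative differences (median -0.47), 8 of them without overlap, and their summed signal was 9697 and 8266 in musculus x domesticus F1 against 12089 and 13292 in domesticus x musculus F1, within the 6554 to 22949 of the other livers. Endothelial markers had a median of -0.43 (-0.27 without musculus x domesticus F1 replicate 2), with sums of 7986 and 5949 against 9247 and 9408 and a range of 6642 to 14849 elsewhere. The antigen presentation genes above thus stood on the same side as the macrophage markers. Digestive enzymes of the exocrine pancreas were on the other side: all 13 tested were positive (median 2.33), 11 without overlap, and the sums were 11046 and 14250 against 4241 and 6734, with 2200 to 98549 in the other livers. Cpb1, a carboxypeptidase, had 508 and 613 against 16 and 13, and Ctrb1, a chymotrypsinogen, 706 and 975 against 38 and 40. None of the 13 was larger than all same-genotype differences. Skeletal muscle markers summed to 1786 and 3104 against 624 and 1409, with 366 to 23187 elsewhere. No marker of these lists was at 0 on an F1 array.

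**Figure D4:**
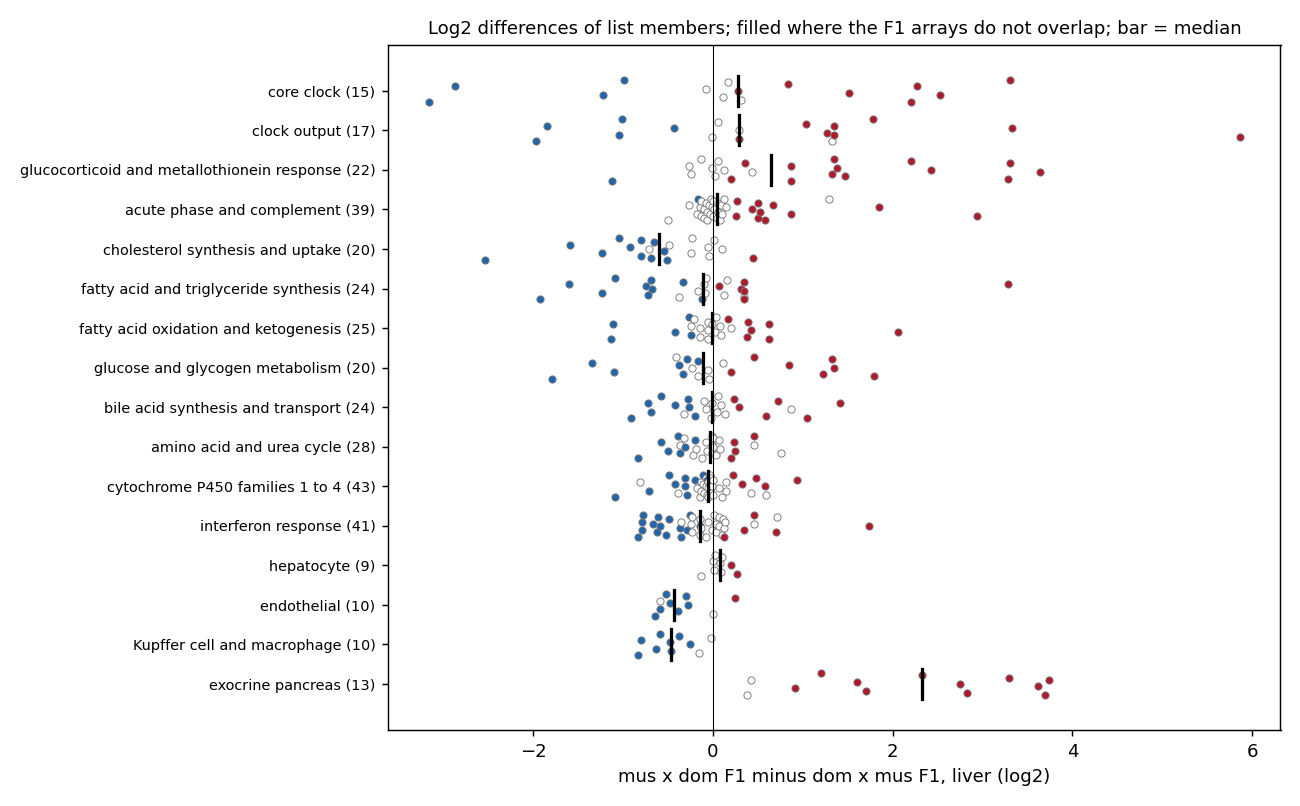
Liver log2 differences (musculus x domesticus F1 minus domesticus x musculus F1) of the tested members of 16 lists, 1 row a list and 1 point a gene, filled where the 2 F1 do not overlap, with a bar at the list median. Clock lists spread far to both sides, cholesterol synthesis lies mostly left of 0 (median -0.60), and glucocorticoid response (median 0.65) and exocrine pancreas (median 2.33) lie mostly right.

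Genes just outside the threshold were named by smallest p, 10 in each direction. The higher ones, besides Nr1d2, Usp2 and Dbp, were Diaph2, Narf, Upk3b, Golgb1, Slc25a51, Hsd17b6 and Zbtb20, with differences of 1.02 (Hsd17b6) to 2.12 (Diaph2). Diaph2, an X-linked formin that nucleates actin, had 620 and 646 against 200 and 70, and the males of domesticus mothers lay at 70 to 299 while the other 10 livers lay at 428 to 652. Slc25a51, a mitochondrial NAD carrier, had 1917 and 1673 against 727 and 520 (limma adjusted p = 0.062). The lower ones, besides Sc5d and Neu2, were Svil, Ube2a, Septin9, Mospd2, Anp32a, Lgalsl, Chka and Tcp11, the largest difference in size being that of Chka (-2.89). Chka, a choline kinase of phosphatidylcholine synthesis, had 375 and 285 against 2431 and 2814, with 753 and 1602 in musculus and 333 and 1311 in domesticus livers. Its same-genotype pairs thus also differed widely.

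Brain and testis of the same males showed how far the liver differences were shared. Of the 24 called probe sets 21 passed the filter in brain and 17 in testis, and 1 was called between the F1 in each, where 0.0222% and 0.204% of probe sets were called. In both it was Trappc2. In brain Trappc2 had 2934 and 2959 in musculus x domesticus F1 against 92 and 129 in domesticus x musculus F1 (4.41 ± 0.15 SE, limma adjusted p = 8.96e-08), and in testis 411 and 284 against 67 and 50 (2.07 ± 0.20 SE, limma adjusted p = 0.00072). It did not differ by test between liver and brain (-0.89 ± 0.39 SE, limma adjusted p = 0.363).

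The difference between tissues was tested in fits over both tissues with the male as a random block. Liver differed from brain in 147 of 22347 probe sets (0.658%) and in 17 of the 21 called ones, and from testis in 182 of 22190 (0.82%) and in 15 of the 17. Those members were chosen for their liver difference, so these counts lean toward liver. Hprt had 4684 and 4006 against 4229 and 5087 in brain, where the F1 overlapped, and the liver difference minus the brain difference was -1.10 ± 0.15 (SE; limma adjusted p = 0.00142). Mpp1 gave -1.76 ± 0.22 (SE; limma adjusted p = 0.00101) against brain. The F1 difference of Hprt and Mpp1 in liver was thus larger in size than that in brain. Ypel2 had 2259 and 2240 against 2333 and 2171 in brain, and its liver minus brain value was -1.89 ± 0.26 (SE; limma adjusted p = 0.00142). Without domesticus x musculus F1 replicate 1 the liver to brain contrast called 2 probe sets and without musculus x domesticus F1 replicate 1 the liver to testis contrast called 4. With males not taken as a block the counts were 14 and 7.

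Most clock genes were not shown to differ from liver in the other tissues. The liver difference was called against brain in 1 of 15 core clock and 3 of 16 output genes, and against testis in 2 of 13 and 3 of 15. These shares lay above those over all probe sets, 0.658% against brain and 0.82% against testis. In brain, Dbp had 6029 and 4344 in musculus x domesticus F1 against 2022 and 2031 in domesticus x musculus F1 (1.32 ± 0.28 SE, limma adjusted p = 0.394), without overlap and on the same side as in liver. Liver minus brain was 4.54 ± 1.03 (SE; limma adjusted p = 0.0428) and liver minus testis was 5.17 ± 1.04 (SE; limma adjusted p = 0.0211). The liver difference was thus the larger one by test. Of the core clock list, Nr1d2 passed both tests (2.07 against brain and 2.11 against testis) and Nr1d1 passed that against testis (2.26). Limma called 0 of the 15 core clock genes between the F1 in brain. Arntl had 583 and 640 against 805 and 1109 in brain, also without overlap, and its liver minus brain value of -2.26 was not called (limma adjusted p = 0.131).

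**Figure D5:**
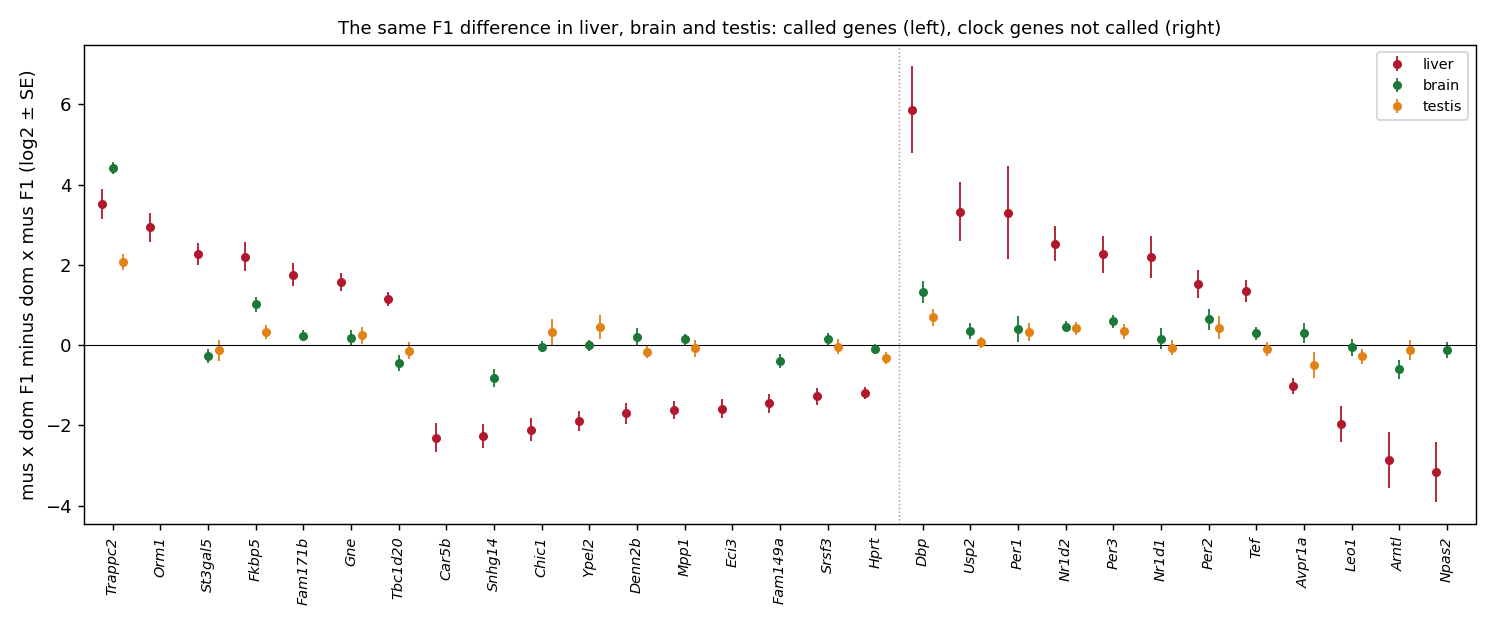
Log2 difference between the reciprocal F1 (musculus x domesticus minus domesticus x musculus, with SE) in liver, brain and testis for the 17 called genes on the left and 12 clock genes not called in liver on the right. Trappc2 is far from 0 in all 3 tissues, whereas Hprt, Ypel2, Gne and Dbp are far from 0 in liver and nearer to it in brain and testis.

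The musculus and castaneus cross offered the same reciprocal contrast on other livers. Musculus x castaneus F1 minus castaneus x musculus F1 was called in 10 of 27022 probe sets (0.037%), 2 of them among the 24, and 17 of the 24 had the same sign there, as did 15810 of all 27022. Both shared ones lack a single gene symbol, and their differences in that cross were -1.67 ± 0.25 and 1.53 ± 0.22 (SE; limma adjusted p = 0.049 and 0.039). Hprt had 1445 and 1234 in musculus x castaneus F1 against 1901 and 1879 in castaneus x musculus F1 (-0.49 ± 0.15 SE), and Mpp1 had 591 and 658 against 1449 and 1366 (-1.14 ± 0.22 SE, limma adjusted p = 0.204). Trappc2 stood at -0.03 ± 0.37 (SE) and Car5b at -0.21 ± 0.36 (SE) in that cross. None of these 4 was called there. Dbp had 2099 and 2063 against 626 and 3772, where the F1 overlapped. No probe set was called for a difference between the 2 crosses (0%, with 1182 at an unadjusted p under 0.05 in limma), and the smallest adjusted p was 0.0893, for St3gal5 (3.00 ± 0.38 SE). Since none was called, no gene named here is shown to differ by test between the crosses.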

How the data were processed

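Signals of 42 arrays (14 males, 3 tissues, 7 genotypes of 2 males) were used as deposited. They are linear intensity values from MAS5, per the submitters' processing notes; its version is not given in the sources used here. MAS5 subtracts mismatch-probe signal, and the deposited intensity values had 2% trimmed means of 496.88 to 497.48 in these livers. Intensities were taken as log2(signal + 31), 31 being the 20th percentile of the table, without further normalization, and probe sets whose mean log2 signal over the livers reached its 40th percentile were kept (27022 of 45037). The filter used the mean over all livers, so members bright in 1 group could pass through it. limma 3.58.1 in R 4.3.3 (lmFit, eBayes with intensity trend, 7 residual degrees of freedom) fitted all 14 livers. Tissue contrasts took the male as a random block (correlations 0.315 for brain and 0.294 for testis). Data were simulated for the reciprocal contrast over 27022 probe sets. Of log2 differences of 1, 2, 3 and 4, 30%, 92%, 98% and 96% were recovered, and 8 unchanged probe sets were called. There 50 probe sets were changed at each size, all with mean signals at or above the median in liver, brain and testis. The shares may thus not hold for dimmer or more variable probe sets. In the real livers Dbp, at 5.86, was not called.

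Probe sets were named through the platform annotation: 34945 had 1 symbol, 932 several and 9160 none. Named genes were all called ones with 1 symbol, no _x_at suffix and F1 that did not overlap, by the probe set with the smallest p, then 10 genes a direction by smallest p, all clock genes, and from the other lists the called members or the 2 largest differences. Genes named beyond these were chosen after their values were seen. List members were read by the brightest probe set of each gene. The comparison and the 39 gene lists were chosen with earlier results of these data known. The labels call the 2 males of a genotype biological replicates. The replicate numbers of the 2 F1 share only a number: deviations of same-numbered livers correlated at 0.145. Alternatives were another normalization, pseudocount, filter, variance model or set of arrays, the replicate number as a block, and leaving out each array. The number of arrays limits precision.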

Additional observations from a re-analysis of the deposited data

Results flagged for a closer look

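The difference between the reciprocal F1 (musculus x domesticus minus domesticus x musculus) was not the same in liver as in another tissue for 20 named genes, by the limma test of the difference between tissues. All values are log2 differences in liver minus those in the other tissue, and named genes were picked for liver, which favours a larger difference there.

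Against both brain and testis, the differences were 2.53 and 2.39 for St3gal5, 1.38 and 1.32 for Gne and 1.61 and 1.29 for Tbc1d20, and they were -2.07 and -2.43 for Chic1, -1.89 and -2.34 for Ypel2 and -1.91 and -1.52 for Denn2b. Mpp1 stood at -1.76 and -1.53, Srsf3 at -1.44 and -1.24 and Hprt at -1.1 and -0.873. Of the clock genes, Nr1d2 stood at 2.07 and 2.11 and Dbp at 4.54 and 5.17 against brain and testis.

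Against brain, the values were also 1.52 for Fam171b, -1.46 for Snhg14 and -1.05 for Fam149a, which were not tested against testis because they were too dim there. They were -1.31 for Avpr1a and -1.91 for Leo1, which were not called against testis. Against testis but not against brain, the calls were 1.87 for Fkbp5, 2.26 for Nr1d1, 1.44 for Tef and 3.26 for Usp2.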

How the results depend on the processing

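The 24 probe sets called between the F1 became 14 with median centring (all 14 among the 24), 11 without the filter (all among the 24), 3 without the intensity trend (2 shared), 377 with the 4 F1 arrays alone and 1426 with the replicate number as a block, and 0 to 5 when 1 of the 4 arrays was left out. Quantile normalization and pseudocounts of 10 and 100 gave 36, 21 and 30. The 1668 parental calls became 948 with parental arrays alone, and 769 to 1135 leaving out 1 array (769 without musculus replicate 1 and 1085 without replicate 2). The contrast between crosses had 2 calls with a pseudocount of 100, 2 without the trend, 1 with its own groups alone and 0 to 5 leaving out 1 array. Liver against brain went to 69 calls without the filter, 94 without the trend, 14 with no replicate block and 2 to 131 leaving out 1 male. Liver against testis went to 98 without the filter, 277 with its own groups alone, 7 with no replicate block and 4 to 95 leaving out 1 male. With 1 male left out (the first and second musculus x domesticus F1, then the first and second domesticus x musculus F1), liver against brain had 17, 131, 2 and 29 calls and liver against testis 4, 95, 39 and 20. Leaving out an array lowers the number of samples; for the other settings the cause was not tested. Of the 17 called named genes, none turned its direction in these settings, and 0, 0, 1 and 2 stayed called without each array in that same order (Trappc2, then Trappc2 and Orm1). Directions turned in 9 uncalled genes. Tsc22d3 stood at -0.0168 with median centring. Leaving out 1 F1 array gave ranges of -0.194 to 0.305 for Tsc22d3, -0.218 to 0.554 for Bhlhe40, -0.0839 to 0.317 for Rora, -0.277 to 0.124 for Csnk1e and -0.392 to 1.02 for Bhlhe41. They were -0.00463 to 0.592 for Tspan4, -0.313 to 0.296 for Lonrf3, -6.55 to 0.199 for Sult2a2 and -0.812 to 3.19 for Moxd1. Signals near the offset of 31, such as those of Npas2 and Orm1 in the dimmer F1, are compressed by it.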
